A study of Mus musculus with 4 samples.

Results

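The loci that encode the alpha and beta chains of the T cell receptor were examined for peaks of 2 related transcription factors, Eos (encoded by Ikzf4) and Helios (encoded by Ikzf2), in mouse regulatory T cells. Members were chosen by position, as the listed peaks whose summit lay between the first and last annotated gene segment of the alpha locus (Tcra, which also holds the delta chain segments) or of the beta locus (Tcrb), or within 30 kb of Trac, Trdc, Dad1, Trbc1 or Trbc2. Of 1106 anti-Eos peaks 5 qualified, and of 469 anti-Helios peaks 3 qualified, which made 8 of 1575 peaks in all. The 8 peaks marked 5 places, of which 3 were in both lists and 2 in the anti-Eos list only. These loci were picked for description because of peaks already seen there, so all values below are descriptions without tests.

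Chromatin immunoprecipitation with sequencing (ChIP-seq), in which an antibody recovers DNA crosslinked to its target protein, was performed on CD4+CD25+ cells from spleen. The groups used here were wild-type cells with antibody 18H2 against Eos and wild-type cells with antibody D8W4X against Helios, 1 library each. The wild-type strain and the age and sex of the mice are not given in the labels. The other 2 libraries, with the same antibodies in cells from mice carrying floxed Eos and Foxp3-Cre, in which Eos is lost in cells expressing Foxp3, were not analysed here. CD4+CD25+ isolation also recovers recently activated conventional T cells, whose share is not given in the labels. Genes marking T cells or Treg cells had an anti-Eos summit within 30 kb in 7 of 8 cases (Foxp3, Il2ra, Cd3d, Cd3e, Cd3g, Lat and Zap70, but not Cd4). They had an anti-Helios summit in 5 of 8 (Cd3d, Cd3e, Cd3g, Lat and Zap70, but not Foxp3, Il2ra or Cd4). Of all protein-coding genes, 7.97% and 4.26% had one. These marker counts rested on 5 and 3 distinct summits, since Cd3d, Cd3e and Cd3g share 1, and peaks are no measure of expression. The Foxp3 summit lay 8727 bp outside the gene, with a fold of 5.55 on 8 fragments, where the lowest count in the anti-Eos list was 7. B cell markers had summits near 1 of 6 genes in each list (Cd79a, with 4 anti-Eos and 3 anti-Helios summits, all outside the gene, and folds up to 24.4 and 17.5), myeloid markers near 1 of 4 (Spi1, anti-Eos only) and CD8 and NK cell markers near 1 of 4 (Nkg7, anti-Eos only).

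T cell receptor genes are assembled in the thymus by V(D)J recombination, which joins variable (V), diversity (D, in beta and delta) and joining (J) segments upstream of a constant (C) gene and deletes or inverts the DNA in between. In mice the main enhancer of the alpha locus (E-alpha) lies beyond the constant gene Trac, within a locus control region that extends toward Dad1, and the enhancer of the beta locus (E-beta) lies between the constant gene Trbc2 and the V segment Trbv31. The delta enhancer lies within the Tcra locus, close to Trdc. Factors known to act at these enhancers include RUNX, ETS, GATA, E-box, TCF and LEF proteins, and Ikaros, the founding member of the family of Eos and Helios, is a regulator of antigen receptor loci in lymphocytes. An allele with a rearranged alpha gene has usually lost Trdc, and the intervals that hold the alpha and beta enhancers are kept.

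In the alpha locus (chromosome 14, GRCm38), 202 annotated segments span 1.80 Mb from 52427967 to 54224198, and neither antibody had a summit in that span. Both antibodies instead had 2 peaks in the 11.3 kb between Trac (54220521 to 54224198, the constant gene of the alpha chain) and Dad1 (54235485 to 54253929, which encodes a subunit of the oligosaccharyltransferase complex). In the beta locus (chromosome 6), 53 segments span 0.667 Mb from 40891296 to 41558371, with 3 anti-Eos summits and 1 anti-Helios summit. The 9.51 kb between Trbc2 (41546730 to 41548181) and Trbv31 (41557693 to 41558371) held 2 anti-Eos summits and the anti-Helios summit. The remaining anti-Eos summit lay in the 2.50 kb between Trbc1 (41538219 to 41539665) and the diversity segment Trbd2 (41542163 to 41542176). All 8 summits thus lay outside the annotated segments and constant genes, in stretches on the constant-gene side of each locus.

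**Figure D1:**
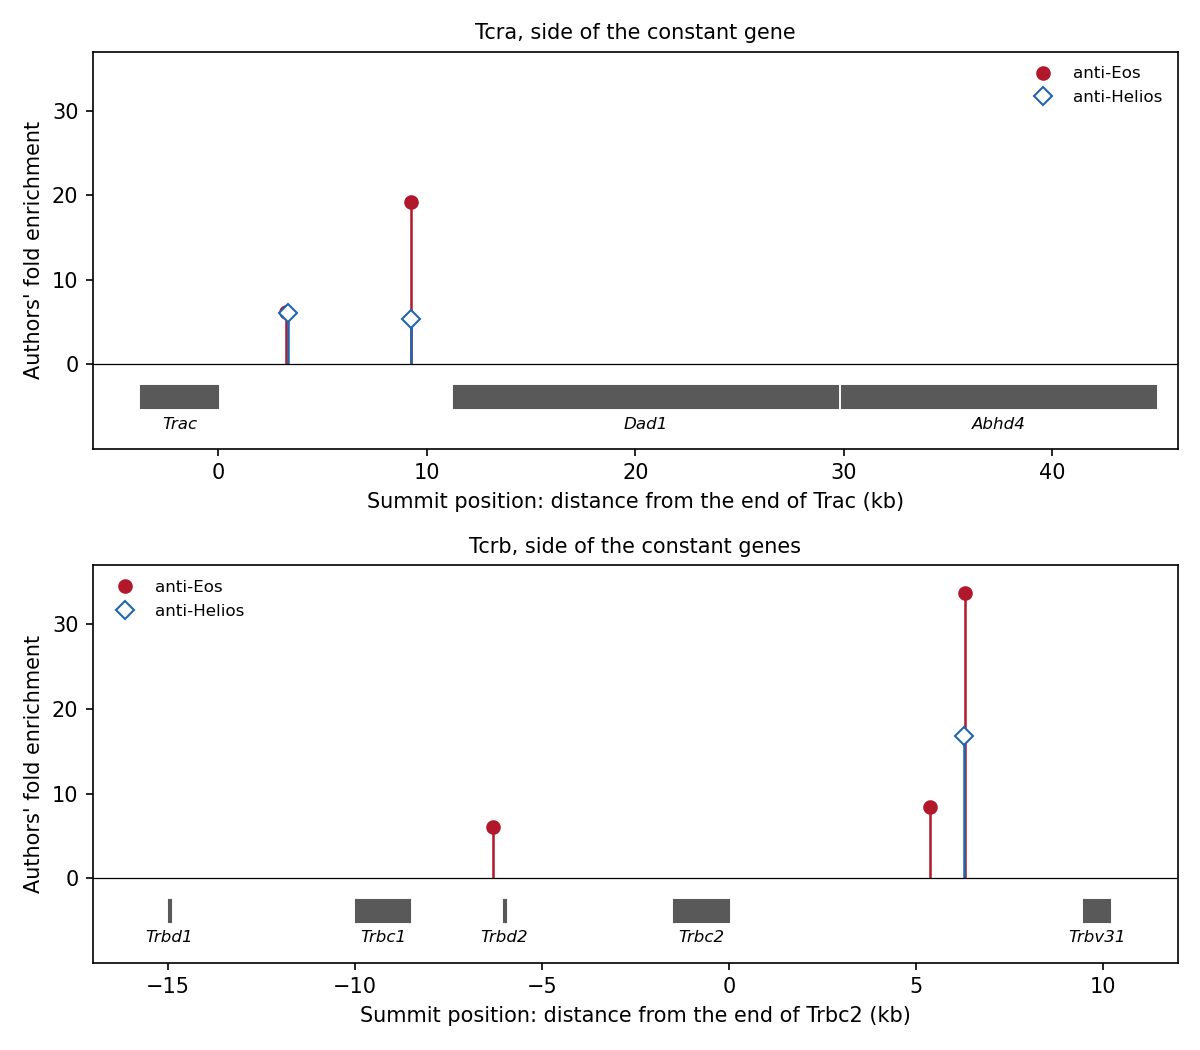
Authors' fold enrichment of each listed peak (vertical axis) against the distance of its summit from the end of Trac (upper panel) or of Trbc2 (lower panel), in kb, with annotated genes and segments as grey boxes (J segments are not drawn). Filled circles are anti-Eos peaks and open diamonds anti-Helios peaks, and the highest point of both antibodies stands between Trbc2 and Trbv31, at folds of 33.7 and 16.8.

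The main beta peak, between Trbc2 and Trbv31, was the highest of the members in both lists. With anti-Eos it ran from 41554294 to 41554886, had its summit at 41554499, and carried a fold enrichment of 33.7. Fold enrichment is the authors' own value per peak, the signal at the summit over the local background of a control library. No source used here names the control behind each list, which could be an input, a knockout library or something else. Against a knockout library, a fold would compare the genotypes rather than measure occupancy in wild-type cells alone. With anti-Helios the peak ran from 41554372 to 41554578, with its summit at 41554481 and a fold of 16.8. The anti-Eos summit was 6.32 kb beyond Trbc2 and 3.19 kb before Trbv31, and the anti-Helios summit lay 18 bp from it. This is the interval of the beta enhancer, but the exact boundaries of the enhancer are not in the annotation used.

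The number of fragments behind each fold was worked out from the authors' fold and p-value. At the main beta peak it was 51 for anti-Eos (95% Poisson interval 38.0 to 67.1) and 38 for anti-Helios (26.9 to 52.2), where intervals cover counting error only. The local background, in scaled control fragments, was 0.542 for anti-Eos, the lowest value in that list, and 1.08 for anti-Helios. So low a value is not particular to this peak, since at least 8.77% of the anti-Eos list had a background below 0.544. By fold the peak ranked 2 of 1106 in the anti-Eos list and 7 of 469 in the anti-Helios list. By fragment count it ranked 11 and 29. At 593 bp the anti-Eos peak was wider than 99.2% of its list, and 388 bp of it lay on the Trbv31 side of the summit. The anti-Helios peak was 207 bp wide (wider than 66.3% of its list).

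A second, lower anti-Eos peak stood beside the main one, from 41553521 to 41553657. Its summit lay 931 bp from the main summit, on the Trbc2 side, 5.39 kb beyond that gene. It had a fold of 8.42 and rested on 12 fragments (Poisson interval 6.20 to 21.0) over a background of 0.544, and it ranked 378 of 1106 by fold. No anti-Helios peak was listed there. A neighbour this close was not common, since 95 of 1106 anti-Eos peaks (8.59%) had another anti-Eos summit within 1 kb, the pair at this place included.

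The third beta peak, before Trbd2, had the fewest fragments and the lowest -log10 q of the members, and was listed with anti-Eos only. It ran from 41541866 to 41542113 and ended 50 bp before Trbd2, whose upstream flank is known to hold a promoter. Its summit, 278 bp from Trbd2 and 2.22 kb beyond Trbc1, sat 19 bp from one edge of the 248 bp peak. The fold was 6.09, with 9 fragments (Poisson interval 4.12 to 17.1) over a background of 0.642, which ranked 830 of 1106 by fold and 1008 by fragments. It was the only member with a -log10 q under 5 (4.37). No peak of either antibody was listed between Trbv1 and Trbd1, the stretch that holds the corresponding flank before Trbd1. None was listed between Trbd1 and Trbc1 either.

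In the alpha locus the nearer of the 2 places lay just beyond Trac. The anti-Eos peak ran from 54227324 to 54227670 with its summit 3.27 kb past the end of Trac, and the anti-Helios peak from 54227453 to 54227659 with its summit 3.36 kb past it. E-alpha is known to lie on this side of Trac, close to the gene. The folds were 6.24 and 6.09, which ranked 781 of 1106 and 361 of 469, in the lower part of both lists. The fragment counts were 17 (Poisson interval 9.90 to 27.2) and 22 (13.8 to 33.3), more than in 69.1% and 71.6% of the peaks of their lists. The background under the summit was 1.89 and 2.40 scaled control fragments, above that of 81.4% and 88.1% of the peaks. This background may come from a window wider than the peak, so it does not place control fragments at the summit. The genome-wide background was taken here as the lowest local background among the peaks of each list (0.542 and 0.672). It is not a measured genome average. Over it the same counts would give folds of 11.7 and 12.4.

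The farther alpha place lay on the Dad1 side of the interval, and both antibodies had their summit at the same base, 54233447. The summit was 9.25 kb beyond Trac and 2.04 kb from the near end of Dad1, which is the 3′ end of that gene because Dad1 is on the minus strand. The anti-Eos peak (54233260 to 54233748, 489 bp) had a fold of 19.2 and ranked 16 of 1106. The anti-Helios peak (54233289 to 54233549, 261 bp) had a fold of 5.40 and ranked 420 of 469. The fragment counts were 35 with anti-Eos (Poisson interval 24.4 to 48.7) and 23 with anti-Helios (14.6 to 34.5). The backgrounds were 0.871 and 3.0, so that both the lower count and the higher background entered the lower anti-Helios fold. Over the genome-wide background the folds would be 23.4 and 12.9.

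**Figure D2:**
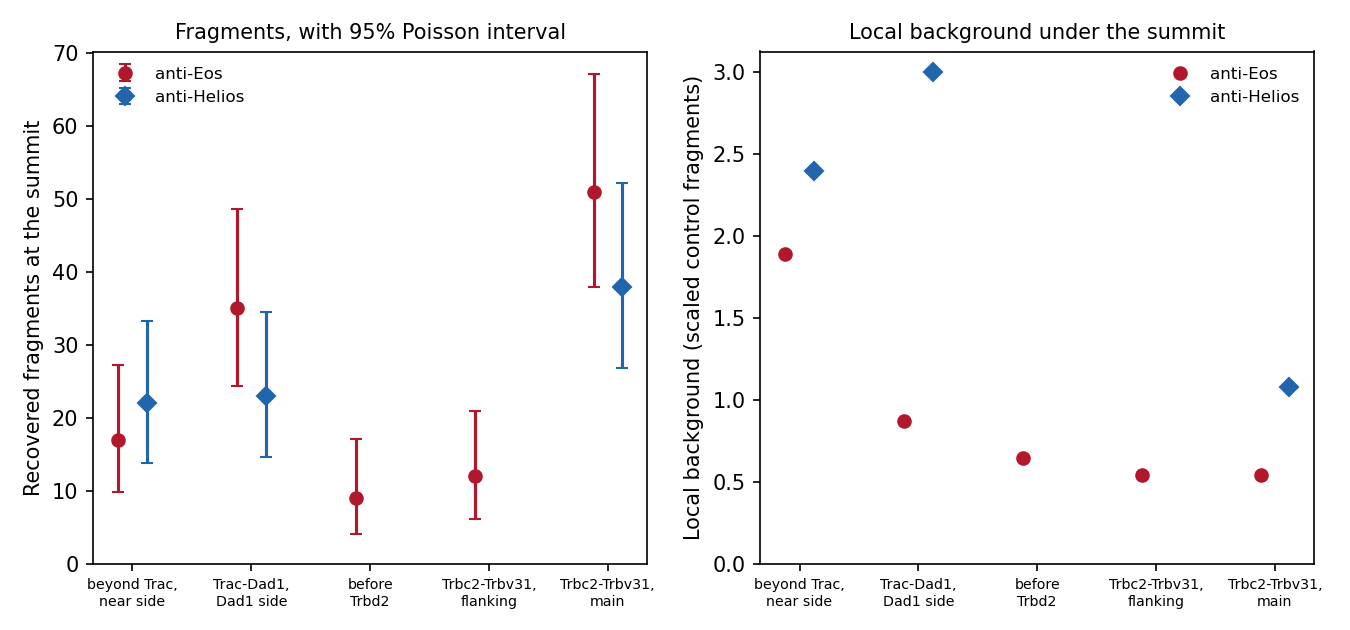
Left, fragments recovered at the summit of each member peak (points) with 95% Poisson intervals (bars), and right, the local background under the same summits in scaled control fragments, for the 5 places on the horizontal axis. Circles are anti-Eos and diamonds anti-Helios. The main beta place has the most fragments in both lists (51 and 38), and the alpha places have the highest anti-Helios backgrounds (2.40 and 3.0).

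By fold over the local background the main beta peak was first of the 3 shared places in both lists, and the alpha places changed order between them. The counting intervals below carry the Poisson limits of the fragments through to the fold, with the background held fixed. With anti-Eos the folds were 33.7 at the main beta peak (25.3 to 44.1), 19.2 at the Dad1 side (13.6 to 26.6) and 6.24 at the Trac side (3.78 to 9.78), so the Trac side stood apart from the other two, whose intervals met. With anti-Helios they were 16.8 (12.1 to 23.0) at the main beta peak, 5.40 (3.51 to 7.97) at the Dad1 side and 6.09 (3.93 to 9.07) at the Trac side, so the main beta peak stood apart and the alpha places did not differ beyond counting error. By fragments the order was main beta, Dad1 side, Trac side in both lists (anti-Eos counts of 51, 35 and 17, anti-Helios counts of 38, 23 and 22). The anti-Helios counts of 23 and 22 did not differ beyond counting error, so the order of the alpha places is not settled in that list. Over the genome-wide background the order is the same by construction, because every count of a list is then set against the same value. The 2 anti-Eos peaks without an anti-Helios partner, with 9 and 12 fragments, had the fewest fragments of the 8 members.

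**Figure D3:**
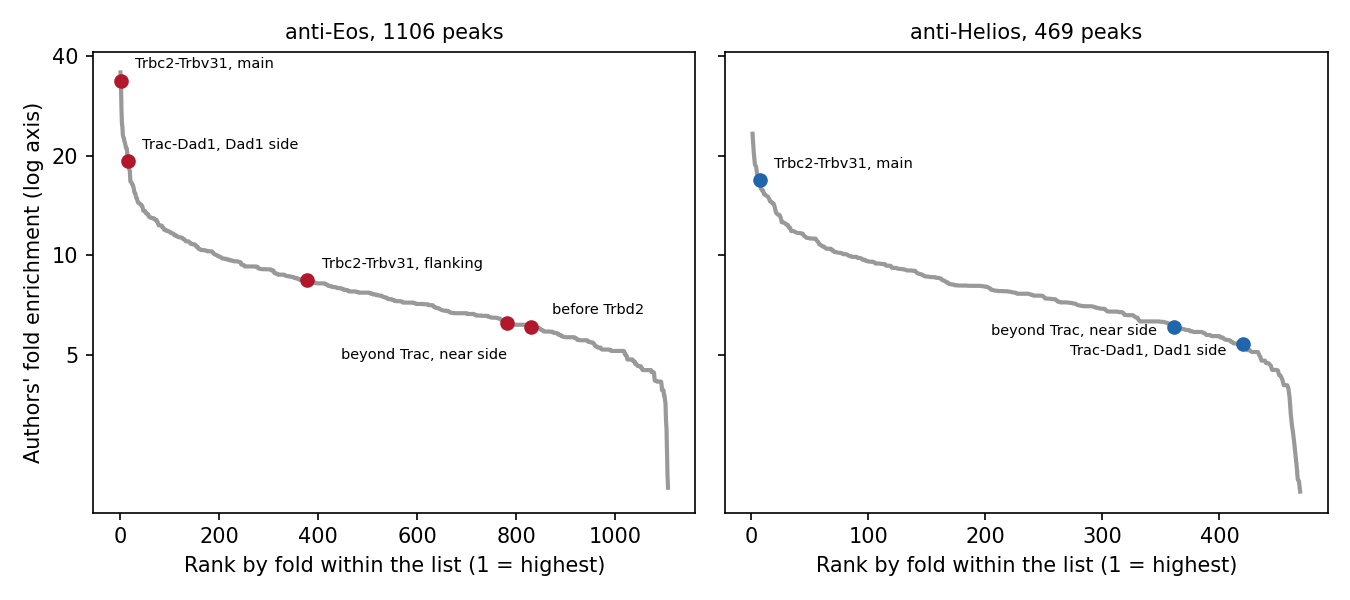
Authors' fold enrichment on a log axis against rank within each list (grey line, 1106 anti-Eos and 469 anti-Helios peaks), with the members marked as points. The main beta peak is near the top of both lists (ranks 2 and 7), whereas the Dad1-side peak ranks 16 with anti-Eos and 420 with anti-Helios.

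The comparison of the antibodies asked how far they marked the same places. All 3 anti-Helios members overlapped an anti-Eos member by at least 1 bp, where 65.9% of all anti-Helios peaks overlapped an anti-Eos peak, and 3 of 5 anti-Eos members overlapped an anti-Helios peak, where 27.9% of all anti-Eos peaks did. With so few members these counts are not set apart from the rest of the lists. At each of the 3 places the anti-Helios peak lay wholly inside the anti-Eos peak and covered 59.7% (Trac side), 53.4% (Dad1 side) and 34.9% (main beta peak) of it. Among all 310 overlapping pairs of the study, 122 (39.4%) were nested in this way. The distance between the summits was 92, 0 and 18 bp, against a median of 30.5 bp over the 310 pairs (interquartile range 13.0 to 64.0). With overlap of at least 50% of each peak, 2 of the 3 places were shared, where 52% of all anti-Helios and 22.1% of all anti-Eos peaks were. With summits within 50 bp it was also 2 of 3, where 44.3% and 18.8% of all peaks were. Only 4 of the 310 pairs had both summits at 1 base, the Dad1-side pair among them.

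The folds of a pair come from 2 lists with separate backgrounds, so their ratio is given only beside the ratios of all overlapping pairs. The anti-Eos fold was 3.57 times the anti-Helios fold at the Dad1 side, 2.002 times at the main beta peak and 1.02 times at the Trac side, where the median over the 310 pairs was 1.06 (interquartile range 0.817 to 1.48). The Dad1-side ratio ranked 4 of 310 and the main beta ratio 26. In fragments the Dad1-side ratio was 1.52 (exact 95% interval 0.874 to 2.70), the main beta ratio 1.34 (0.865 to 2.10) and the Trac-side ratio 0.773 (0.385 to 1.52), with a median of 0.941 over all pairs. All 3 intervals contained that median. Over the genome-wide background the Dad1-side ratio fell to 1.81 and ranked 16 of 310, where the median was 1.14. The larger anti-Eos fold at the Dad1 side therefore rested partly on the background of 3.0 in the anti-Helios list.

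**Figure D4:**
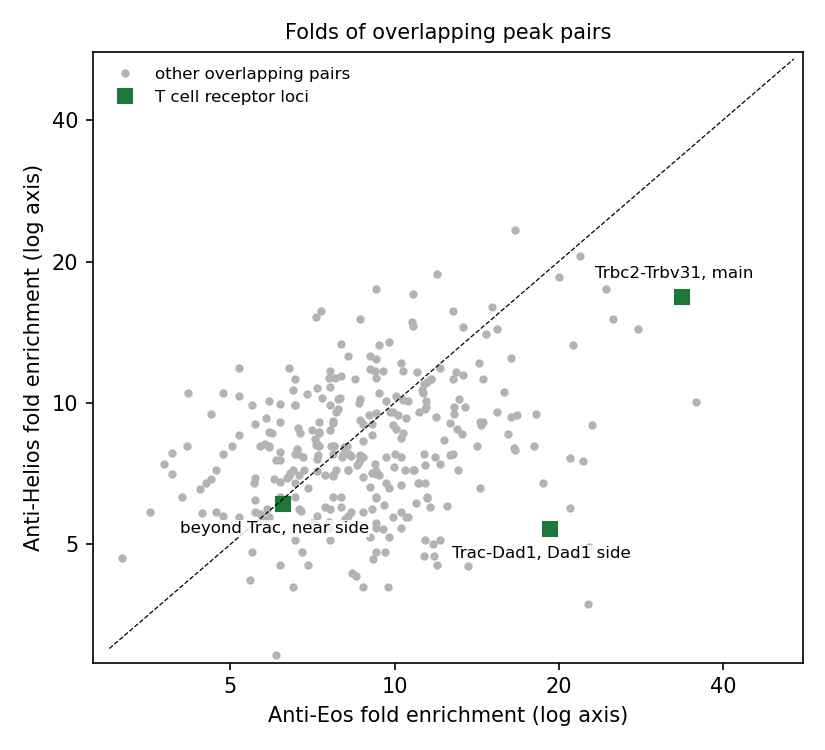
Anti-Helios fold against anti-Eos fold, both on log axes, for the 310 overlapping pairs of peaks (grey points) with the 3 pairs of the T cell receptor loci as green squares; the dashed line marks equal folds. The Trac-side pair lies on the line (6.24 and 6.09), and the Dad1-side pair lies far to its right (19.2 and 5.40).

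The rest of the loci held no listed peak. None of the 130 Trav, 60 Traj, 6 Trdv and 35 Trbv segments had a summit of either antibody inside it or within 1 kb. The 1.79 Mb between Trav1 and Trac, which includes Trdc (54142851 to 54146108, the constant gene of the delta chain) and the delta enhancer, was without a peak, as were the 641 kb between Trbv1 and Trbd1. The latter stretch includes trypsinogen genes such as Prss1, Prss2 and Prss3, which are interspersed with the beta segments. V segments are repeated in related copies, and no source used here says how reads with several matches were treated. Whether mapping or the loss of segments by recombination lowered the signal there was not tested.

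Beyond the loci, the nearest anti-Eos summits lay 170 kb before Trav1, within the chromatin remodeller gene Chd8, and 173 kb past Dad1, 21 bp from Mrpl52, which encodes a mitochondrial ribosomal protein (fold 12.3, 26 fragments). The anti-Helios list also had a peak within Chd8, and no anti-Helios summit within 2.41 Mb beyond Dad1. On chromosome 6 the next anti-Eos summits were 2.54 Mb before Trbv1 and 6.95 Mb past Trbv31. The member farthest from a listed gene was the main beta peak, 6.32 kb from Trbc2, so no peak stood close to the limit of 30 kb on either side.

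The promoter of Dad1 is the only one of the 5 listed genes in the RefSeq promoter table. Dad1 bounds the alpha interval with its 3′ end, and its promoter, at the other end of the gene, carried no peak of either antibody. It lies at chr14:54253880-54254179 (GRCm38.p6, minus strand), 20.4 kb from the Dad1-side summit, and overlaps the promoter of the neighbouring gene Abhd4, a lipase gene on the opposite strand. The sequence runs from 250 bases before the start of Dad1 to 50 after it. Capitals mark the matches to the motifs searched on both strands.
Dad1 promoter: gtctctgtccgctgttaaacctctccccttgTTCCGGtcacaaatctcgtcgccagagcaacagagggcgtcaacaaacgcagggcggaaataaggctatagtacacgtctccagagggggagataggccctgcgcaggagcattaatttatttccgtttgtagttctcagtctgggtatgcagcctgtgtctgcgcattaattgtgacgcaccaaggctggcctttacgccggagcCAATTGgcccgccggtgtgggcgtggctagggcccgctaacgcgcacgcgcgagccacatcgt

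The marked matches are an Ets motif (CCGGAA, read on the other strand, from base 32) and an E-box (CANNTG, from base 238), which occur in 14.9% and 72.3% of 32817 promoters of the same length. The Ikaros family core GGGAA, present in 62.7% of promoters, and the longer TGGGAA that contains it (25.6%), were not found in this window. The Runx motif TGTGGT (16.8%), the Ets motif AGGAAG (35.4%), the Gata motif AGATAA (11.2%), the Tcf and Lef motif CTTTGA (16.0%) and the cyclic AMP response element TGACGTCA (1.79%) were not found either. Over all these promoters, 313 (0.954%) held an anti-Eos summit and 185 (0.564%) an anti-Helios summit. The sequences under the member peaks themselves were not analysed here.

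The other genes of the receptor complex and of its assembly were then looked up. Of 10 such genes, 4 had an anti-Eos summit within 30 kb and 3 an anti-Helios summit, where 7.97% and 4.26% of 21887 protein-coding genes had one. The CD3 chains transmit the signal of the receptor, and the genes Cd3d, Cd3e and Cd3g are neighbours, so their summits were 1 shared place. It lay inside Cd3d (chromosome 9, 44986338 to 44986698 with anti-Eos, 44986429 to 44986595 with anti-Helios), 520 and 552 bp from the nearer gene end, with folds of 10.6 and 5.70 on 20 and 18 fragments. Cd247, which encodes the zeta chain of the complex, had an anti-Eos peak inside the gene (chromosome 1, 165845103 to 165845300, fold 9.08, 13 fragments). Ptcra, which encodes the partner of the beta chain in thymocytes, the coreceptor genes Cd4, Cd8a and Cd8b1 and the recombinase genes Rag1 and Rag2 had no summit within 30 kb.

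The constant genes of other antigen receptors were looked up in the same way. None of 10 constant genes of the gamma chain (Trgc1, Trgc2, Trgc3, Trgc4) and of immunoglobulins (Ighm, Ighd, Igkc, Iglc1, Iglc2, Iglc3), which are used by gamma delta T cells and B cells, had a summit of either antibody within 30 kb. With 7.97% and 4.26% of protein-coding genes having one, a count of 0 of 10 is near the background and is not a result about these loci. Of the 20 constant region genes in the gene table, 3 had a summit within that distance in each list (15%), and these were Trac, Trbc1 and Trbc2, the genes whose surroundings chose the members. Trdc, 81.4 kb from the nearest member summit, had none.

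The last list held genes of RUNX, ETS, GATA, E-box, TCF and LEF factors and of the Runx partner Cbfb. Ikzf1, Ikzf3 and Bcl11b were also listed, without being among the enhancer factors named above. Of these 12 genes, 7 had an anti-Eos summit within 30 kb and 5 an anti-Helios summit. The shares of protein-coding genes were the same 7.97% and 4.26%. Lef1, which encodes a high mobility group factor that binds E-alpha, had 3 anti-Eos summits (folds 10.0, 8.23 and 13.0) and 2 anti-Helios summits (7.79 and 7.21), all inside the gene. Ets1, Bcl11b and Ikzf3 also had summits of both antibodies. At Ets1 the folds were 4.70 and 5.87, and at Bcl11b 4.16 and 8.10, with summits inside the genes. At Ikzf3 the shared place lay outside the gene, at 6693 and 6675 bp, with folds of 6.58 and 11.2. Another anti-Eos summit lay inside Ikzf3 (7.07). Runx1 (5.54), Gata3 (7.20) and Ikzf1, which encodes Ikaros (8.78), had anti-Eos summits only, and Runx3 an anti-Helios summit only, 28424 bp outside the gene (8.51). Runx3 and the Runx partner gene Cbfb had no anti-Eos summit within 30 kb, nor did Tcf7, Tcf3 and Tcf12. The list was drawn up with earlier results of these data known, and large genes are more likely to meet a summit, so nothing particular to the list is read from its count.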

How the data were processed

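Deposited peak lists of 2 libraries were used, 1 line per peak. Per the submitters' processing notes, the tools were BWA 0.7.1, cutadapt 4.4, SAMtools 1.17, deepTools 3.5.1 and Picard, on mm10 (GRCm38.p6). No source used here names the peak caller or its control. Per the labels, cells were fixed for 10 min in 1% formaldehyde and 6 µg of antibody was used. The deposited values are the authors' fold (ratio), -log10 p, -log10 q, an integer score equal to the whole part of 10 times -log10 q, and the summit offset (other).

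Fragments and local background were solved from fold, (fragments + 1)/(background + 1), and an upper Poisson tail. This formula is inferred. It gave both values within a relative tolerance of 0.0001 for 100% of peaks, with fragments scaled by 1 (anti-Eos) and 0.895 (anti-Helios). The solving step was tested on data simulated from the same formula, which cannot show that the authors' values were made with it. Median fragments per peak were 14 and 18 (ranges 7 to 106 and 9 to 124). A count taken at a summit is the highest of its peak, which intervals ignore. Python 3.11.15 and SciPy 1.17.1 were used.

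Genes came from the RefSeq table of GRCm38.p6, which has no exons or UTRs. Named items were the 5 listed genes, genes holding, flanking or bounding members, and the lists given. Members and lists were chosen with earlier results of these data known. With 1 library per group nothing was tested. Alternatives were margins of 10 and 100 kb, -log10 q of at least 5, placement by any base, stricter overlap, other ranks and the genome-wide background.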

Additional observations from a re-analysis of the deposited data

How the results depend on the processing

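The counts of 5 anti-Eos and 3 anti-Helios members were the same with margins of 10 and 100 kb and with placement by any base of the peak, and a -log10 q of at least 5 left 4 and 3. Shared places numbered 3 by overlap of at least 1 bp and also where each peak of a pair had to reach a -log10 q of 5. They numbered 2 with overlap of at least 50% of each peak, which dropped the main beta peak, and 2 with summits within 50 bp, which dropped the Trac-side peak. Over the genome-wide background the fold moved beyond its counting interval at the Trac side (11.7 with anti-Eos, 12.4 with anti-Helios) and, with anti-Helios, at the Dad1 side (12.9). The Dad1-side ratio of anti-Eos to anti-Helios fold moved to 1.81, an alternative chosen after seeing the data. Ranked by fragments, the main beta peak with anti-Eos moved to 11, and the Trac-side and Dad1-side peaks with anti-Helios to 115 and 103. Within their counting intervals, but by more than 1.5 times, ranks by fragments also moved at the Trac side (781 to 278), the Dad1 side (16 to 32) and the flanking beta peak (378 to 674) with anti-Eos, and at the main beta peak with anti-Helios (7 to 29). By construction these settings replace or ignore the local background. No paired analysis was possible because each group has 1 library and no test was made. The lists hold only places past the authors' threshold, so weaker signal at these loci, such as anti-Helios signal before Trbd2, cannot be read from them.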
